A study of Mus musculus with 4 samples.

Results

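The genes described here are 6 receptor genes that govern how lymphocytes leave, stay in or enter tissue: *S1pr1*, *S1pr4*, *Selplg*, *Cd44*, *Cd69* and *Gpr183*. They were matched by symbol among the 55367 gene symbols of the count tables, and all 6 were found and passed the filter on low counts. The 4 RNA-seq libraries come from CD4+ T cells of the spleen of C57BL/6 mice: 2 are labelled wild type (WT), and the other 2 carry the label of a conditional *Satb1* knockout (cKO). According to the series design and the methods, the cKO mice carried floxed *Satb1* alleles and *Thpok-cre*, which drives Cre recombinase once thymocytes commit to the CD4 lineage, so that the whole CD4+ compartment is targeted, Treg cells included. The WT mice are labelled by genotype and strain only, and whether they carried Cre or a floxed allele is not given in the sources used here. The methods describe adult mice of mixed sexes, and the labels give neither age nor sex for a library. Nothing in the labels says that a library pools several mice.

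T cells leave the spleen and lymph nodes by following sphingosine-1-phosphate (S1P), a lipid that is abundant in blood and lymph and scarce inside tissue. S1PR1 senses this gradient and drives exit, and CD69, an early activation protein, binds S1PR1 and takes it off the cell surface, which holds the cell in place. S1PR4 is another S1P receptor of lymphocytes. Entry into tissue begins with rolling, where PSGL-1, the product of *Selplg*, binds selectins. CD44 binds hyaluronan and is high on activated, memory and many Treg cells, and GPR183 (also called EBI2) guides cells within lymphoid tissue along oxysterols.

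The 4 libraries held between 4495902 and 6555699 gene counts. Of uniquely placed reads, 59.4% to 64.5% were assigned to no counted gene feature, which does not place them outside genes. The gene-level count of *Satb1* did not separate the genotypes (log2 fold change -0.05, SE 0.12, edgeR adjusted p = 0.877), so directions follow the labels. *Foxp3*, the Treg factor, was higher in the cKO libraries (log2 fold change 1.86, edgeR adjusted p = 0.000447). *Xist* was read only at 9 and 6 counts in the cKO libraries against 5447 and 4235 in WT, and the Y-linked *Ddx3y* had 525 and 597 counts in cKO and 0 in both WT libraries. The sex of the mice and their genotype therefore cannot be told apart. *Cd4* lay between 1183 and 1279 CPM and *Cd3e* between 788 and 966 CPM in the 4 libraries, so defining markers of the labelled cell type were present. CPM is the count of a gene per 1000000 counts that its library holds in the tested genes, after TMM (trimmed mean of M values) scaling. In bulk RNA, fewer cells of a type and less RNA per cell cannot be told apart.

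The members are scattered over the genome. On GRCm38, with positions from GENCODE M21, *S1pr1* lies on chromosome 3 (115710433 to 115715072), *S1pr4* on 10 (81497747 to 81500132), *Selplg* on 5 (113818536 to 113832644), *Cd44* on 2 (102811141 to 102901665), *Cd69* on 6 (129267325 to 129275436) and *Gpr183* on 14 (121952551 to 121965195). Each is protein coding and on the minus strand. *S1pr1* and *S1pr4* have a single annotated transcript, and *Cd44*, whose variable exons are spliced in many combinations, has 9. *Gpr183* lies inside the span of *Ubac2* on the opposite strand and *Cd44* spans a small nuclear RNA gene, but none of the exonic bases of any member overlap an exon of another gene. The unknown strand setting of the counting thus adds no reads of an annotated exon to these 6 genes.

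Of the 6 members, *Cd69* alone passed the test, being 1.73-fold higher in the cKO libraries. Across all 12403 tested genes 4.30% were called at an adjusted p under 0.05, 2.35% as higher and 1.95% as lower in cKO, so the members' share rests on a single gene. At an adjusted p under 0.01, which 1.23% of all tested genes reached, 0 members were called. *S1pr1*, *Cd44* and *Gpr183* had fold changes within 1% of 1, with intervals of the fold reaching from 0.796 to 1.26 at the widest. *S1pr4* and *Selplg* were lower in both cKO libraries by a log2 fold change of -0.23 each, which did not pass the test. The groups did not overlap in CPM for 3 members, *Cd69* above and *S1pr4* and *Selplg* below, where 50.3% of all tested genes had groups that did not overlap, 24.8% with cKO above and 25.4% with cKO below.

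**Figure D1:**
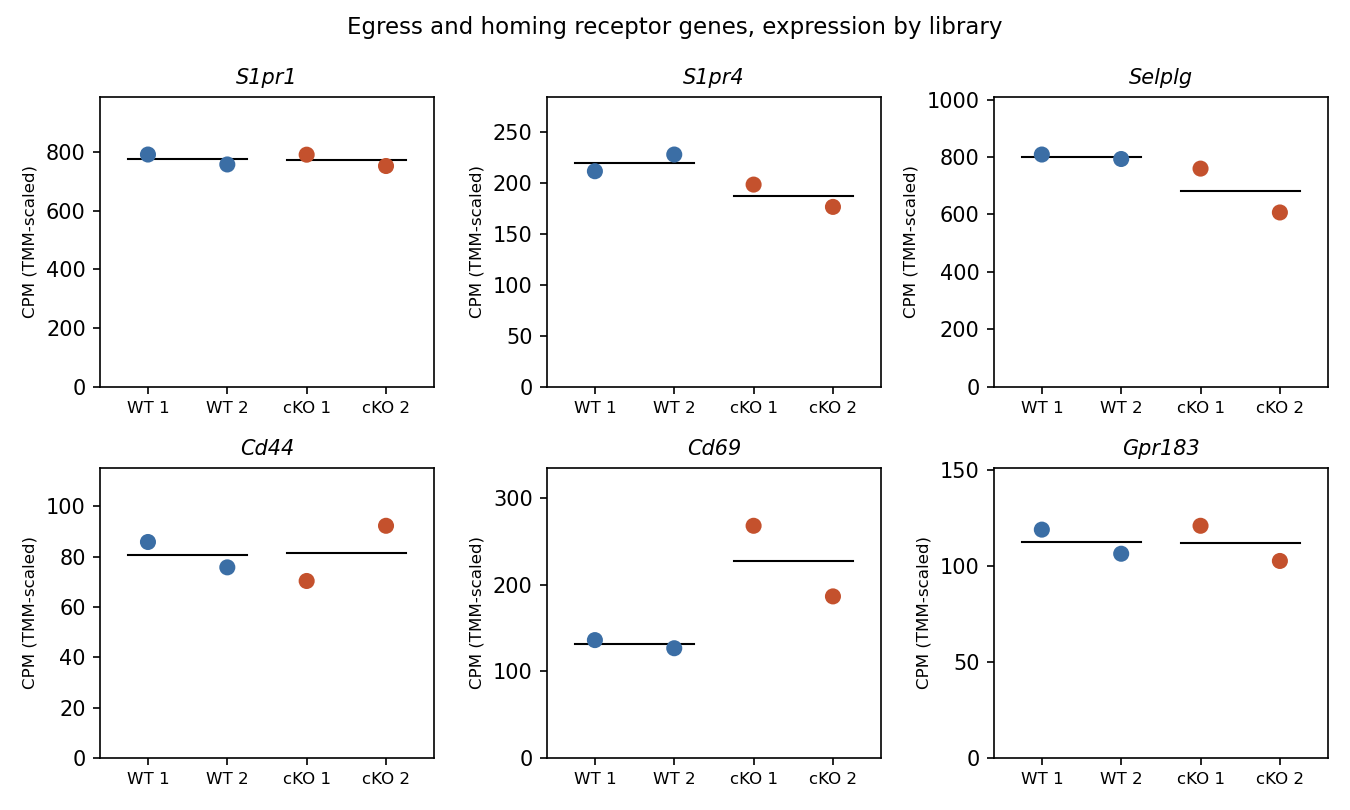
CPM (TMM-scaled, linear axis from 0) of each member in the 4 libraries, WT in blue and cKO in orange, with a black line at the mean of each genotype (n = 2). *Cd69* sits at 127 and 136 CPM in WT and at 186 and 268 CPM in cKO, while *S1pr1* lies between 752 and 791 CPM in every library.

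*S1pr1*, the receptor that drives exit into blood and lymph, had 5171 and 3379 counts in WT 1 and WT 2, and 4148 and 3537 in cKO 1 and cKO 2. That is 791 and 757 CPM in WT against 790.4 and 752 CPM in cKO. The first library of each genotype was slightly above the second, and the genotypes interleaved. Means were 774 ± 23.9 CPM (SD, n = 2) in WT and 771 ± 27.3 CPM (SD, n = 2) in cKO. The estimated log2 fold change came to -0.01 (SE 0.11, edgeR adjusted p = 0.989), and the fold lay between 0.842 and 1.18 by its 95% interval. These libraries do not exclude a change of the transcript within that interval.

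*S1pr4*, a second lymphocyte S1P receptor, had 1384 and 1018 counts in WT and 1042 and 831 in cKO, or 212 and 228 CPM against 199 and 177 CPM. Both cKO libraries lay below both WT libraries. Means were 219.9 ± 11.6 CPM in WT and 188 ± 15.5 CPM in cKO (SD, n = 2 each). The log2 fold change of -0.23, SE 0.10, gave an edgeR adjusted p = 0.279, and the fold lay between 0.726 and 1.01 by its interval. Without cKO 1, a fit in which the lone cKO library is assumed to vary like the WT pair, the value was -0.31 with adjusted p = 0.0460, while 10.6% of all tested genes were called in that fit.

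The promoter of *S1pr4* is printed because this is the sole member with separated groups for which a window was at hand, and those of *Cxcr4* and *Rgs2* because these related genes rose together with *Cd69* in the related lists. Windows are 300 bases, from 250 before to 50 after a RefSeq start on GRCm38.p6, read 5′ to 3′ on the minus strand, which all of these genes use. They lie at chr10:81500088-81500387, chr1:128592250-128592549 and chr1:144004100-144004399. Capitals mark the letters CCACCC on either strand, the core of a box bound by Krüppel-like factors such as KLF2, a known activator of *S1pr1*.
S1pr4: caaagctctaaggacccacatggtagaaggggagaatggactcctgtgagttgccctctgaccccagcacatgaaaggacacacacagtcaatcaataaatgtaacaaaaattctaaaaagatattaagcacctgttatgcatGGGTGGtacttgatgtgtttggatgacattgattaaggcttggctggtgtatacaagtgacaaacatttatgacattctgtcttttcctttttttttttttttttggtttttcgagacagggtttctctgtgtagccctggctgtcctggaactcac
Cxcr4: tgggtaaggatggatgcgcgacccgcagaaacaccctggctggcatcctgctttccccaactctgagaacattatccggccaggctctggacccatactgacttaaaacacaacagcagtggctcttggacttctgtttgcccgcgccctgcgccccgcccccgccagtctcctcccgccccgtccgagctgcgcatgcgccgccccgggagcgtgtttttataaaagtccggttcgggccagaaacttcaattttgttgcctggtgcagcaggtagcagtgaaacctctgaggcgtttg
Rgs2: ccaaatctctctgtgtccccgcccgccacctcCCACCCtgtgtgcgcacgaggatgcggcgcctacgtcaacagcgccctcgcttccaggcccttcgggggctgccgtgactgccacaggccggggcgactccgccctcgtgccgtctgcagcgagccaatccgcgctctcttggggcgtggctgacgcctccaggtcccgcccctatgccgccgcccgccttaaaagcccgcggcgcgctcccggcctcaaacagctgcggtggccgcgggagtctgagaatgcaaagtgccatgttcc

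*S1pr4* held 1 match, 107 bases before the start and on the strand opposite to the gene, *Rgs2* held 1 match 218 bases before its start, and *Cxcr4* held 0. Of the 7 called genes of the related lists 3 had a window, and the third, *Ccr9*, held 1 match 74 bases before its start. Among the 32851 windows of this length in the RefSeq table, 31.5% held CCACCC. The AP-1 site, searched as TGANTCA on both strands, was in none of these windows and in 7.81% of all. Of the other members, *Cd44* and *Gpr183* had a window, with 0 matches to either motif, and *S1pr1*, *Selplg* and *Cd69* were not in the table. Such a match is a description of letters and not a bound site.

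*Cd69*, whose protein retains cells in tissue by removing S1PR1 from their surface, was the member that rose. It had 889 and 565 counts in WT 1 and WT 2, and 1406 and 877 in cKO 1 and cKO 2. That is 136 and 127 CPM against 268 and 186 CPM. The WT libraries were close to each other, both cKO libraries lay above them, and cKO 1 stood well above cKO 2. Means were 131 ± 6.64 CPM in WT and 227 ± 57.6 CPM in cKO (SD, n = 2 each). The estimated log2 fold change came to 0.79 (SE 0.16, edgeR adjusted p = 0.0292), a rise of 1.73-fold with an interval from 1.35 to 2.22. By size it ranked 525 of 12403 genes among rises, and by p it ranked 362, so that *Cd69* is one of many genes of like change and not among the most changed.

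The size of the *Cd69* rise rested in part on cKO 1. Without that library the log2 fold change was 0.50 (edgeR adjusted p = 0.00502), and without cKO 2 it was 1.03. Without WT 2 the value was 0.74 and no longer passed, with adjusted p = 0.184, in a fit that called 1.40% of all genes. Over all alternatives the adjusted p ran from 8.18e-09 to 0.184. The log2 difference between the cKO libraries was 0.52 for *Cd69*, against 0.10 between the WT libraries.

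Since CD69 acts on S1PR1, both transcripts were also set against each other within a library, where depth cancels. For each *Cd69* count there were 5.82 and 5.98 *S1pr1* counts in WT 1 and WT 2, and 2.95 and 4.03 in cKO 1 and cKO 2. The ratio was thus close in WT 1 and WT 2, and lower in both cKO libraries. On the log2 scale *Cd69* over *S1pr1* stood at -2.54 and -2.58 in WT and at -1.56 and -2.01 in cKO. This is given as a description, because the difference comes from the *Cd69* counts already tested.

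**Figure D2:**
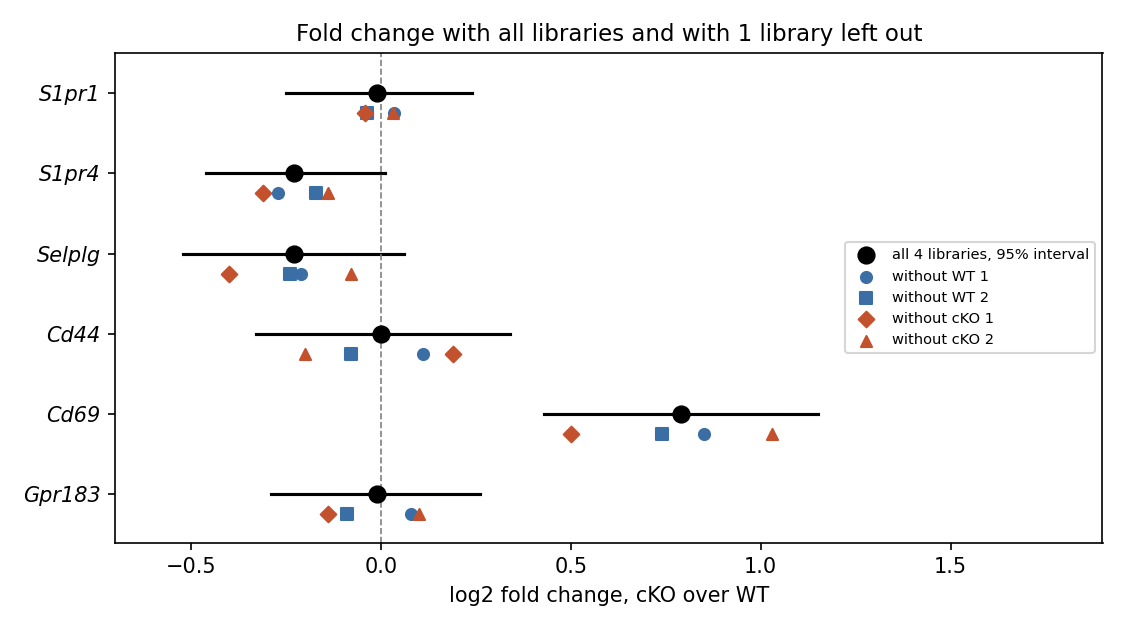
Log2 fold change of cKO over WT for each member: the black point is the value with all 4 libraries, with its 95% interval, and the small symbols are the values with 1 library left out. *Cd69* runs from 0.50 to 1.03 when a library is left out, and the values of *S1pr1*, *Cd44* and *Gpr183* fall on both sides of 0.

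*Selplg* encodes PSGL-1, the selectin ligand on which T cells roll before they enter inflamed tissue. It had 5289 and 3541 counts in WT and 3988 and 2856 in cKO, or 809 and 793 CPM against 759.9 and 607 CPM. Both cKO libraries were below both WT libraries, cKO 1 by little and cKO 2 by more. Means were 801 ± 11.02 CPM in WT and 684 ± 108 CPM in cKO (SD, n = 2 each). The log2 fold change of -0.23, SE 0.13, had an edgeR adjusted p = 0.385, and the fold lay between 0.696 and 1.05 by its interval. Without cKO 1 the value was -0.40 with adjusted p = 0.00654, and without cKO 2 it was -0.08, so a fall of *Selplg* rests on cKO 2.

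*Cd44*, the hyaluronan receptor that marks activated and memory T cells, had 561 and 338 counts in WT and 369 and 434 in cKO. That is 85.8 and 75.7 CPM in WT against 70.3 and 92.3 CPM in cKO. The cKO libraries held both the lowest and the highest value, with the WT libraries between them. Means were 80.8 ± 7.12 CPM in WT and 81.3 ± 15.5 CPM in cKO (SD, n = 2 each). The estimated log2 fold change came to 0.00 (SE 0.15, edgeR adjusted p = 0.996), with an interval of the fold from 0.796 to 1.26. *Cd69* and *Cd44* are both read as activation markers, and here they parted within the cKO libraries: cKO 1 was the higher for *Cd69* and the lower for *Cd44*.

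*Gpr183*, the oxysterol receptor that places T cells within the spleen, had 778 and 475 counts in WT and 635 and 483 in cKO. Expression was 119 and 106 CPM in WT and 121 and 103 CPM in cKO. The genotypes overlapped, with the first library of each above the second. Means were 113 ± 8.89 CPM in WT and 112 ± 13.0 CPM in cKO (SD, n = 2 each). The estimated log2 fold change came to -0.01 (SE 0.12, edgeR adjusted p = 0.974), and the fold lay between 0.820 and 1.20 by its interval.

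To compare levels between genes, CPM was divided by exonic length in kilobases. *S1pr1* had 254 ± 7.86 CPM per kb in WT (SD, n = 2), *Selplg* 188 ± 2.58, *S1pr4* 92.2 ± 4.86, *Gpr183* 39.0 ± 3.08, *Cd69* 20.2 ± 1.02 and *Cd44* 11.9 ± 1.05. The ranges over the 4 libraries did not overlap between neighbours in this order, except that *Cd69* in cKO 1, at 41.2 CPM per kb, reached into the range of *Gpr183*, 35.6 to 41.9. The order depends on the length used. *Cd69* has retained-intron transcripts that stretch its exonic length to 6509 bases, whereas the transcript with its longest coding sequence has 1687 bases. With the length of that transcript for each gene, *Selplg* came first at 432 ± 5.94 CPM per kb in WT, above *S1pr1*. *Cd69* then stood at 77.8 ± 3.93 in WT, between *S1pr4* and *Gpr183*, and at 135 ± 34.2 in cKO, above *S1pr4* at 78.6 ± 6.50. *Cd44* was the lowest of the 6 by either length.

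The wider pathway was read from lists of related genes. Of 73 listed symbols, 72 were in the count tables and 52 were tested. Of these 52 genes, 7 were called, 4 higher and 3 lower in cKO, against 4.30% over all tested genes. The median log2 fold change of the 52 genes was 0.03, beside -0.0015 over all tested genes. The 4 that rose were *Rgs1*, *Rgs2*, *Cxcr4* and *Snx20*, and the 3 that fell were *Ccr7*, *Ccr9* and *Itgae*. Without WT 2 the number called was 3, without cKO 1 it was 12 and without cKO 2 it was 13, in fits that called 1.40%, 10.6% and 12.8% of all tested genes.

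In the list of S1P receptor signalling and egress control, 2 of 13 tested genes were called higher and 0 lower. Over all tested genes these shares were 2.35% and 1.95%. *Rgs1*, which dampens signals of G protein-coupled chemoattractant receptors, went from 20.8 and 12.8 CPM in WT to 49.7 and 50.8 CPM in cKO, a log2 fold change of 1.55 (SE 0.20, edgeR adjusted p = 0.00511). *Rgs2*, of the same family, went from 17.9 and 15.5 CPM to 38.3 and 32.5 CPM, a log2 fold change of 1.08 (SE 0.17, edgeR adjusted p = 0.0104), and lost its call without WT 2 (adjusted p = 0.0829). In both genes the cKO libraries lay well above the WT libraries. *Klf2*, the factor that activates *S1pr1*, stood at 472 and 528 CPM in WT and at 531 and 519 CPM in cKO. Its log2 fold change came to 0.07 (SE 0.11, edgeR adjusted p = 0.770).

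Of the other S1P receptors, *S1pr2* alone was tested and was not called, and *S1pr3* and *S1pr5* had at most 5 counts in a library. In S1P synthesis, breakdown and transport 0 of 4 tested genes were called by edgeR, with 1 at an unadjusted p under 0.05 (19.1% of all tested genes) and 0 called by DESeq2 or limma voom. Of the 4 listed enzymes that make or break down oxysterols, the ligands of GPR183 among them, 0 passed the filter, and *Ch25h* and *Cyp7b1* had 0 counts in all libraries.

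Among genes that modify PSGL-1, the selectins and its adaptors, 1 of 12 tested genes was called, against 4.30% of all tested genes. *Snx20*, a sorting nexin that binds PSGL-1, rose from 58.4 and 47.1 CPM in WT to 91.5 and 76.1 CPM in cKO, a log2 fold change of 0.66 (SE 0.15, edgeR adjusted p = 0.0422). It lost its call without WT 2 (adjusted p = 0.327). The tested genes of glycosyltransferases, which build sugars on PSGL-1, and of tyrosylprotein sulfotransferases, which sulfate its tyrosines, were not called, and *Fut7*, the fucosyltransferase needed for selectin binding, had 3 to 12 counts in a library and was not tested. In the list around CD44 the edgeR test called 0 of 9 genes, with 2 at an unadjusted p under 0.05 (19.1% of all tested genes). DESeq2, limma voom and the likelihood ratio test each called 1. That gene, named after its values were seen, was *Ezr*, whose product ezrin links CD44 to actin. It had 765 and 729 CPM in WT and 577 and 515 CPM in cKO, with a log2 fold change of -0.45 and an edgeR adjusted p = 0.0582.

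Receptors for homing and retention outside the members gave 4 calls among 13 tested genes, 1 higher and 3 lower. Over all tested genes 2.35% were called higher and 1.95% lower. *Cxcr4*, which holds cells near CXCL12 in marrow and lymphoid stroma, rose from 223 and 205 CPM in WT to 623 and 445 CPM in cKO. Its log2 fold change was 1.31 (SE 0.16, edgeR adjusted p = 0.00326). *Cxcr4* and *Cd69* shared their order, with cKO 1 above cKO 2 and both above WT. *Ccr7*, the receptor for entry into lymph nodes and the T cell zone, fell from 553 and 604 CPM to 403 and 349 CPM, a log2 fold change of -0.62 (SE 0.11, edgeR adjusted p = 0.0199), and lost its call without WT 2 (adjusted p = 0.259).

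The gut-homing receptor *Ccr9* fell from 36.7 and 43.9 CPM in WT to 18.7 and 15.3 CPM in cKO, a log2 fold change of -1.23 (edgeR adjusted p = 0.00626). *Itgae*, the integrin chain CD103 that anchors T cells in epithelium, fell from 34.0 and 29.4 CPM to 18.9 and 14.7 CPM, a log2 fold change of -0.92 (edgeR adjusted p = 0.0267). Its call was lost without WT 1 (adjusted p = 0.0939) or WT 2 (0.0841). Of the 2 CD8 T cell genes read, *Cd8b1* fell alongside (42.4 and 52.0 CPM against 27.4 and 22.5 CPM). *Cd8a* had 5.35 and 6.50 CPM in WT and 6.86 and 4.25 CPM in cKO, a log2 fold change of -0.07 (edgeR adjusted p = 0.941), with its highest value in cKO 1. Of 4 tested NK cell genes 3 were called lower, against 1.95% of all tested genes. The whole NK list summed to 81.4 and 72.1 CPM in WT and to 22.1 and 30.6 CPM in cKO. The part of CD8 T and NK cells in the falls of *Ccr9* and *Itgae* was not tested.

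**Figure D3:**
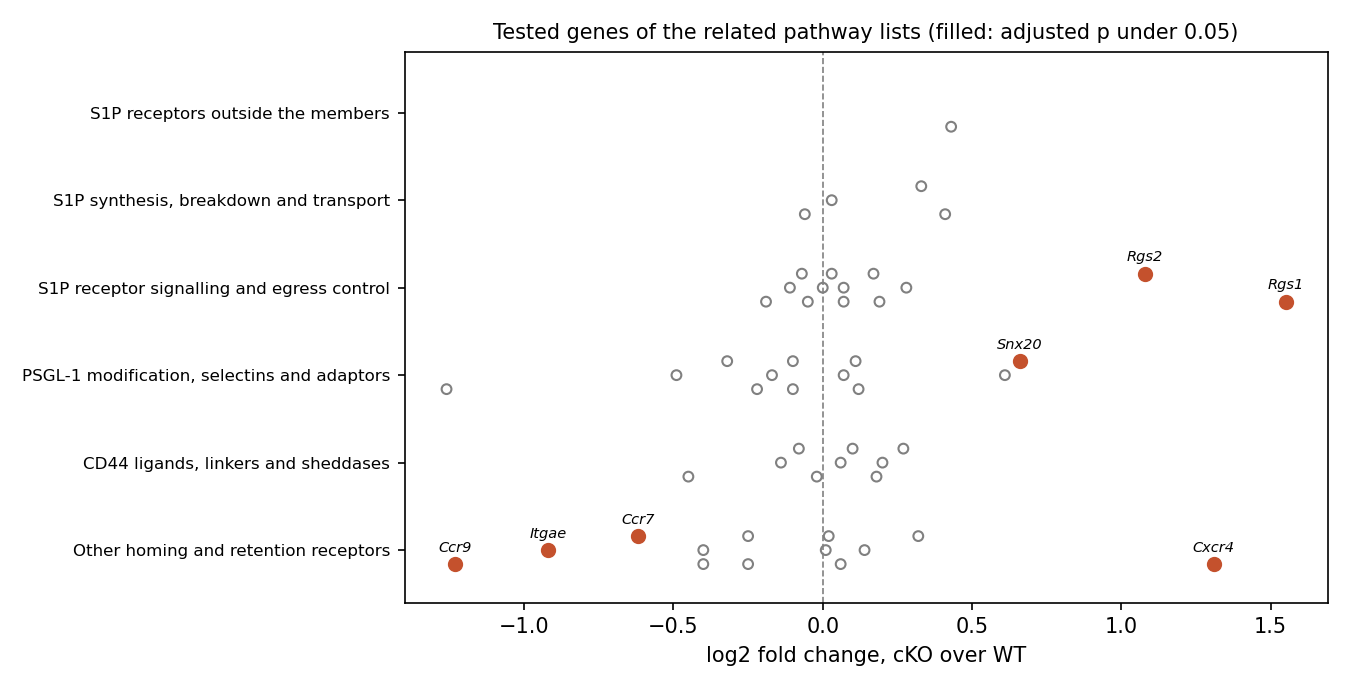
Log2 fold change of cKO over WT for each tested gene of the related lists, 1 row per list; filled points are genes called at an adjusted p under 0.05 and open points are genes that were not. Of 52 genes, 7 are filled, from *Ccr9* at -1.23 to *Rgs1* at 1.55.

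The methods describe T cells enriched with magnetic beads and then sorted by flow cytometry. Some markers of other cells differed between the genotypes. The B cell list summed to 13.5 and 13.2 CPM in WT and to 50.5 and 21.7 CPM in cKO 1 and cKO 2, with 1 of 3 tested genes called higher. The neutrophil list summed to 0 and 3.81 CPM in WT and to 38.9 and 23.8 CPM in cKO, with 3 of 4 called higher. The macrophage and monocyte list summed to 35.8 and 40.1 CPM in WT and to 111 and 49.3 CPM in cKO. Of its 6 tested genes 2 were called higher, and over all tested genes 2.35% were. By limma voom, 0 genes of the B cell list, 0 of the macrophage and monocyte list and 3 of the neutrophil list were called. The sums of these lists were all highest in cKO 1, as *Cd69* was. *Gpr183*, which B cells also express, was at 121 CPM in that library and 119 CPM in WT 1. The part of B cells, neutrophils and macrophages in the *Cd69* value was not tested.

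The Treg list summed to 479 and 405 CPM in WT and to 863 and 1086 CPM in cKO, with 4 of 7 called higher. The higher sum in cKO 2 came mostly from *Foxp3* (405 and 547 CPM in cKO 1 and cKO 2) and *Ikzf2* (70.3 and 146 CPM), while *Ctla4*, *Nrp1* and *Tnfrsf18* were slightly higher in cKO 1. Heat shock genes, which respond to handling and to activation, summed to 995 and 851 CPM in WT and to 1780 and 1633 CPM in cKO. Of their tested genes 5 of 5 were called higher, where 2.35% of all tested genes were called higher. Of 8 immediate early genes, which like *Cd69* are induced within minutes to hours of antigen receptor signals, edgeR called 0. An unadjusted p under 0.05 was reached by 3 of them (19.1% of all tested genes), *Fos* lower and *Junb* and *Egr2* higher in cKO. DESeq2 and limma voom called 0. The 8 genes summed to 835 and 734 CPM in WT and to 892 and 773 CPM in cKO. The share of the *Cd69* difference that goes with Treg markers or heat shock genes was not tested.

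**Figure D4:**
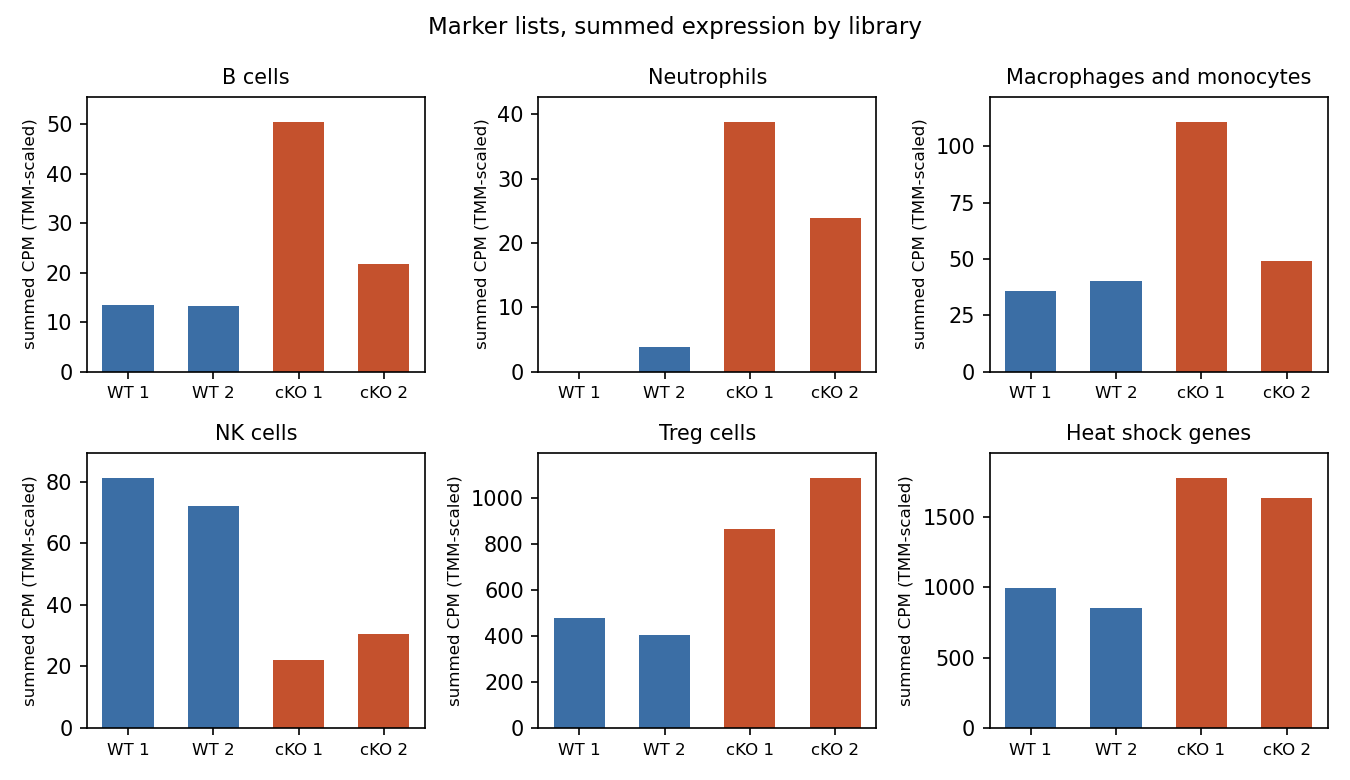
Summed CPM (TMM-scaled) of marker lists in each library, WT in blue and cKO in orange, bars from 0. The B cell, neutrophil and macrophage lists peak in cKO 1, the Treg sum is highest in cKO 2, and the NK list is lower in both cKO libraries than in both WT libraries.

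Genes of like pattern were sought among 6067 candidates with an average log2 CPM of at least 5, by the root mean square distance between log2 profiles over the 4 libraries. For *Cd69* the closest were *Cd81*, a tetraspanin, at 0.0301 and *Txnip*, an inhibitor of thioredoxin, at 0.0406. *Cd81* had 52.6 and 49.1 CPM in WT and 104 and 75.9 CPM in cKO, and *Txnip* 1111 and 1055 CPM in WT and 2323 and 1629 CPM in cKO. Their likeness to *Cd69* follows from how they were chosen, and no test of them is given. Only 11 candidates lay within a distance of 0.1 of *Cd69*, whereas 2309 did so for *S1pr1*, for which *Smad3* and *Smad4* were closest. The nearest genes of the others were *Cog6* and *Maco1* for *S1pr4*, *Tpt1* and *Cox6a1* for *Selplg*, *Ybx3* and *Tiprl* for *Cd44*, and *Pfn1* and *Mlf2* for *Gpr183*. With 4 libraries, closeness of this kind is a description of shape alone.

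The closest tested neighbour on each side of every member was also read, a choice made after the members' values were known. The edgeR adjusted p of these 12 neighbours was 0.131 or more. The neighbours of *Cd69* were *2310001H17Rik*, at a gap of 28.6 kb, with a log2 fold change of 0.48 (edgeR adjusted p = 0.131), and *1700101I11Rik*, at 257 kb, with 0.30 (adjusted p = 0.780). The first had 24.2 and 26.9 CPM in WT and 32.6 and 38.3 CPM in cKO, with cKO 2 the highest, unlike *Cd69*. *Gm9889* lies 0.078 kb from *S1pr1* and had 3.62 to 4.74 CPM with a log2 fold change of -0.13. Beside *S1pr4*, *Ncln* at 1.355 kb had a log2 fold change of -0.05 (SE 0.10) and *Gna15* at 2.17 kb one of -0.40 (SE 0.29). Beside *Selplg*, *Coro1c* at 9.79 kb had -0.09 (SE 0.10) and *Iscu* at 40.2 kb had -0.23 (SE 0.17).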

How the data were processed

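Per the labels and methods, 50-base reads of splenic CD4+ T cells were aligned to mm10 with HISAT2 2.1.0, and HTSeq (0.11.1 in the submitters' processing notes) counted reads per gene. The authors deposited raw counts per gene symbol for each library, with no scaling. Gene annotation and strand setting are not given in the sources used here. HTSeq summary lines were kept out. Reads assigned to no counted gene feature made up 59.4% to 64.5% of reads aligned to a single place. Positions and lengths came from GENCODE M21 (53292 of 55367 symbols matched).

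Counts were analysed in R 4.3.3 with edgeR 4.0.16: filterByExpr (12403 genes kept), TMM scaling, and the quasi-likelihood F test on genotype with no covariate, two-sided, with Benjamini-Hochberg adjusted p-values over every tested gene and a threshold of 0.05. The SE is the absolute log2 fold change divided by the square root of F. Intervals (level 0.95) reflect counting error plus the spread among libraries. Alternatives used DESeq2 1.42.0, limma 3.58.1, other scalings and filters, thinning, a replicate block, fewer genes and each library left out. Figures were drawn with Python 3.11.15 and matplotlib 3.10.9. When tested on simulated data, the procedure recovered 23.7% of 1.5-fold changes and 81.2% of 2-fold changes. An exact permutation test of 2 against 2 libraries cannot give a p under 0.333.

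The study describes the 2 libraries of a genotype as biological replicates. The labels do not name the mice. The p-values set a difference against the spread between these libraries, in an estimate that borrows from all tested genes. Libraries of a genotype differed by more than sampling noise (chi-square per degree of freedom 2.83 for WT and 6.68 for cKO). Members, related gene lists and marker lists were chosen with earlier results of these data known. Related genes were named where called, and *Klf2* and *Ccr7* in any case. Some listed genes are not reported here and were left out of the lists and their counts. Genes of like pattern were the closest pair per member. Markers for CD8 T, dendritic, red and platelet, naive T and T cells were also read. Of their tested genes 1 of 2, 0 of 1, 0 of 4, 2 of 4 and 0 of 5 were called, against 4.30% of all tested genes. The 2 naive T cell genes went opposite ways, *Ccr7* lower and *Il7r* higher (log2 fold change 1.04, adjusted p = 0.0257).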

Additional observations from a re-analysis of the deposited data

How the results depend on the processing

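The rise of *Cd69* kept its direction in all 15 alternative fits and its call at 0.05 in 14 of them, with values of 0.77 to 0.80 apart from fits with a library left out, where it ran from 0.50 to 1.03. *S1pr4* ran from -0.31 to -0.14 and *Selplg* from -0.40 to -0.08 with a library left out, both passing only without cKO 1. Values near 0 changed sign. *S1pr1* ran from -0.0424 to 0.0338 with a library left out, *Cd44* from -0.20 to 0.19 and *Gpr183* from -0.14 to 0.10. *Cd44* was -0.0020 without the low-count filter, -0.013 in limma voom and -0.0069 with the replicate block, and *Gpr183* was 0.012 after thinning. *Klf2* ran from -0.0006 (without WT 1) to 0.16, and *Satb1* ran from -0.13 to 0.0454 (without WT 2), with 0.0311 without cKO 2. The number of members called was 1, 0 at an adjusted p under 0.01 (where 1.23% of all genes passed), and 0 to 3 with a library left out.

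Over all genes 533 were called, 1367 without the low-count filter, 1096 in the likelihood ratio test, 1165 with the replicate block, 153 at an adjusted p under 0.01, and 174 to 1583 with a library left out. Related genes called numbered 7, and 3 to 13 with a library left out. The cause was not tested. Libraries with the same replicate number share only a number, and across genes the correlation of their deviations was 0.0642. No member gained or lost a call with the replicate block. Comparing members per length of the longest coding transcript was chosen after seeing the data. A library left out leaves a lone library, assumed to vary like the others. At this depth *Fut7*, *S1pr3*, *S1pr5* and the oxysterol enzymes did not pass the low-count filter, and low expression and limited depth cannot be told apart for them.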
